A study of Homo sapiens with 16 samples.

Results

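Carboxypeptidases are enzymes that take single amino acids off the carboxy-terminal end of proteins and peptides, and 8 of their genes were followed here through RNA-seq of HMC3, an established cell line of human microglia. The 8 genes, CPA4, CPZ, CPE, CPD, CPM, CPXM1, CPXM2 and CPQ, were taken by symbol from a table of 25370 genes. CPA4 and CPZ were chosen by their large differences from vehicle in an earlier analysis of the same libraries: CPA4 in (2S,6S)-HNK and in both HNK compounds with E2, CPZ in ketamine and (2R,6R)-HNK. Values of these genes that use those libraries, and all their differences from vehicle, are therefore given as description without a p-value. Of the 8 genes, 7 had enough counts to be tested, as did 16004 of all genes. CPXM2 did not: 14 of the 16 libraries had no count for it and the highest count was 2.

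The cells received vehicle, 0.1 nM estradiol (E2), 400 nM ketamine, 400 nM (2R,6R)-HNK, 400 nM (2S,6S)-HNK, or each of these 3 drugs at the same dose together with 0.1 nM E2, for 24 h, with 2 libraries per condition. Both HNK compounds are hydroxynorketamines, metabolites of ketamine that carry a hydroxyl group on the ring and lack the N-methyl group of ketamine, and they are mirror images of each other. All conditions used the same cell line without a change of genotype, and the medium during treatment held neither serum nor phenol red. The labels do not name separate cultures for the 2 libraries of a condition, so p-values measure only the spread between these libraries, which may be technical. The libraries held 55300614 to 81646165 counts. Of the microglial markers examined, CSF1R, CD68 and TREM2 passed the filter on low counts. The defining markers P2RY12, TMEM119, CX3CR1, AIF1, ITGAM, PTPRC, TYROBP and SALL1 had 0 to 7 counts in every library, whereas COL1A1, a collagen gene of fibroblasts, had 3590 to 5340 counts-per-million. Of 9 fibroblast and pericyte markers 6 passed the filter, among them FAP at only 0 to 17 counts. COL3A1, LUM and DCN, other defining markers of fibroblasts, did not pass, with 0 to 6, 0 to 4 and 0 to 12 counts. In bulk RNA, fewer cells of a type and less RNA per cell cannot be told apart.

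Most of these genes belong to the M14 family of zinc carboxypeptidases. CPA4 is of the digestive A/B type, made as an inactive precursor and secreted, and prefers bulky hydrophobic residues. CPE, CPD, CPM and CPZ remove the basic residues arginine and lysine: CPE in the secretory granules where prohormones mature, CPD as a membrane enzyme of the trans-Golgi network, CPM at the cell surface on a lipid anchor, and CPZ in the extracellular matrix, where it also carries a Frizzled-like cysteine-rich domain. CPXM1 and CPXM2 are related secreted proteins with a discoidin domain that lack residues needed for catalysis, and CPQ belongs to another metallopeptidase family. Here CPM always means the gene of carboxypeptidase M, and levels are written as counts-per-million.

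In GRCh37, CPA4 lies on chromosome 7 from 129932974 to 129964020, CPZ on chromosome 4 from 8594387 to 8621486, CPE on chromosome 4 from 166282346 to 166419699, and CPD on chromosome 17 from 28705945 to 28797007, all on the plus strand. CPM lies on chromosome 12 from 69235977 to 69365350 and CPXM1 on chromosome 20 from 2774720 to 2781273, both on the minus strand. CPXM2 lies on chromosome 10 from 125465723 to 125699783 on the minus strand. The exons of CPZ overlap those of GPR78 over 2013 bp on the same strand, and GPR78 had 8 to 45 counts per library where CPZ had 239 to 1234. CPM shares 133 bp of exon with MDM2 on the opposite strand, and whether counting used the strand is not given in the sources used here.

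Promoter sequences from RefSeq (GRCh38.p14), 250 bases ending just before the start, were found for 6 of the 8 genes. The sequences of CPA4, CPE and CPD are shown because the transcripts of these genes were the most abundant of the 8 and took 3 different courses over the conditions. Capitals mark matches to TATAAA (the TATA box) or TGACTCA (the AP-1 motif) on either strand (the reverse of TGACTCA reads TGAGTCA), and the sequences run 5′ to 3′ on the gene's strand, at chr7:130292911-130293160, chr4:165378758-165379007 and chr17:30378677-30378926.
CPA4: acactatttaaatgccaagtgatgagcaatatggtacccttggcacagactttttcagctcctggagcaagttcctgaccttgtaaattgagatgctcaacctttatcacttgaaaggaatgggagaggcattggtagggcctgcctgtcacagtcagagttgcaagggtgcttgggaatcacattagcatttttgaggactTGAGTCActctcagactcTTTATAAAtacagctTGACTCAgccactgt
CPE: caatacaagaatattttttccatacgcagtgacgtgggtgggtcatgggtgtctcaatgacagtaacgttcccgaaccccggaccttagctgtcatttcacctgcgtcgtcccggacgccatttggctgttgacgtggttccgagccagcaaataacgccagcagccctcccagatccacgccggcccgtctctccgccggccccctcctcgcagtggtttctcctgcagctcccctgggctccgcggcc
CPD: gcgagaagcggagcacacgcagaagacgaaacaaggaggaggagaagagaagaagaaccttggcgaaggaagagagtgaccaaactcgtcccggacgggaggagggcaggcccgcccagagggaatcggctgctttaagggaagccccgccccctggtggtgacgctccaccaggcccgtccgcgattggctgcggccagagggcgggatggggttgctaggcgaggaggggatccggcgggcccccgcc
The CPA4 sequence had a GC content of 44.4% and 0 CpG dinucleotides, against medians of 58% and 11 over 35116 promoters of the same length. It held 2 overlapping matches to TATAAA, 1 on each strand, beginning 30 and 28 bases before the start, and TGACTCA beginning 48 and 15 bases before the start. Over all promoters, TATAAA was found in 10.7% and TGACTCA in 4.2%. The CPE and CPD sequences had GC contents of 60.4% and 66.8% with 20 and 21 CpG dinucleotides, and neither held TATAAA or TGACTCA. The CPD sequence shown is the first of 2 that RefSeq gives for the gene. The other, at chr17:30380228-30380477, had a GC content of 45.2% and 3 CpG dinucleotides, and held TGACTCA beginning 91 bases before its start. The STAT motif TTCNNNGAA, found in 6.57% of promoters, and the palindromic consensus estrogen response element, found in 0.0399%, were in none of the 3 sequences shown. The matches are a description of letters in these windows.

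CPA4 was the most abundant of the 8 genes per length of transcript. In vehicle its mean was 72.3 counts-per-million per kilobase of exon, compared with 9.18 for CPD, 7.5 for CPE, 1.61 for CPQ, 1.24 for CPZ, 0.664 for CPM and 0.408 for CPXM1. The vehicle libraries had 282 and 290 counts-per-million of CPA4. E2 had 222 and 221, ketamine 190 and 188, (2R,6R)-HNK 184 and 191, and E2+ketamine 185 and 178. The remaining libraries had 71.4 and 70.2 in (2S,6S)-HNK, 54.9 and 58.5 in E2+(2R,6R)-HNK, and 65.2 and 65.3 in E2+(2S,6S)-HNK. The levels thus formed a high and a low set of conditions that did not overlap. The lowest library of the high set was at 178 and the highest of the low set at 71.4. The share of all genes with such gaps between conditions was not computed, here or for the genes below. Within the high set, vehicle and E2 each stood apart from the other conditions, whereas ketamine, (2R,6R)-HNK and E2+ketamine lay close together, and the largest ratio between the libraries of a condition was 1.07.

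**Figure D1:**
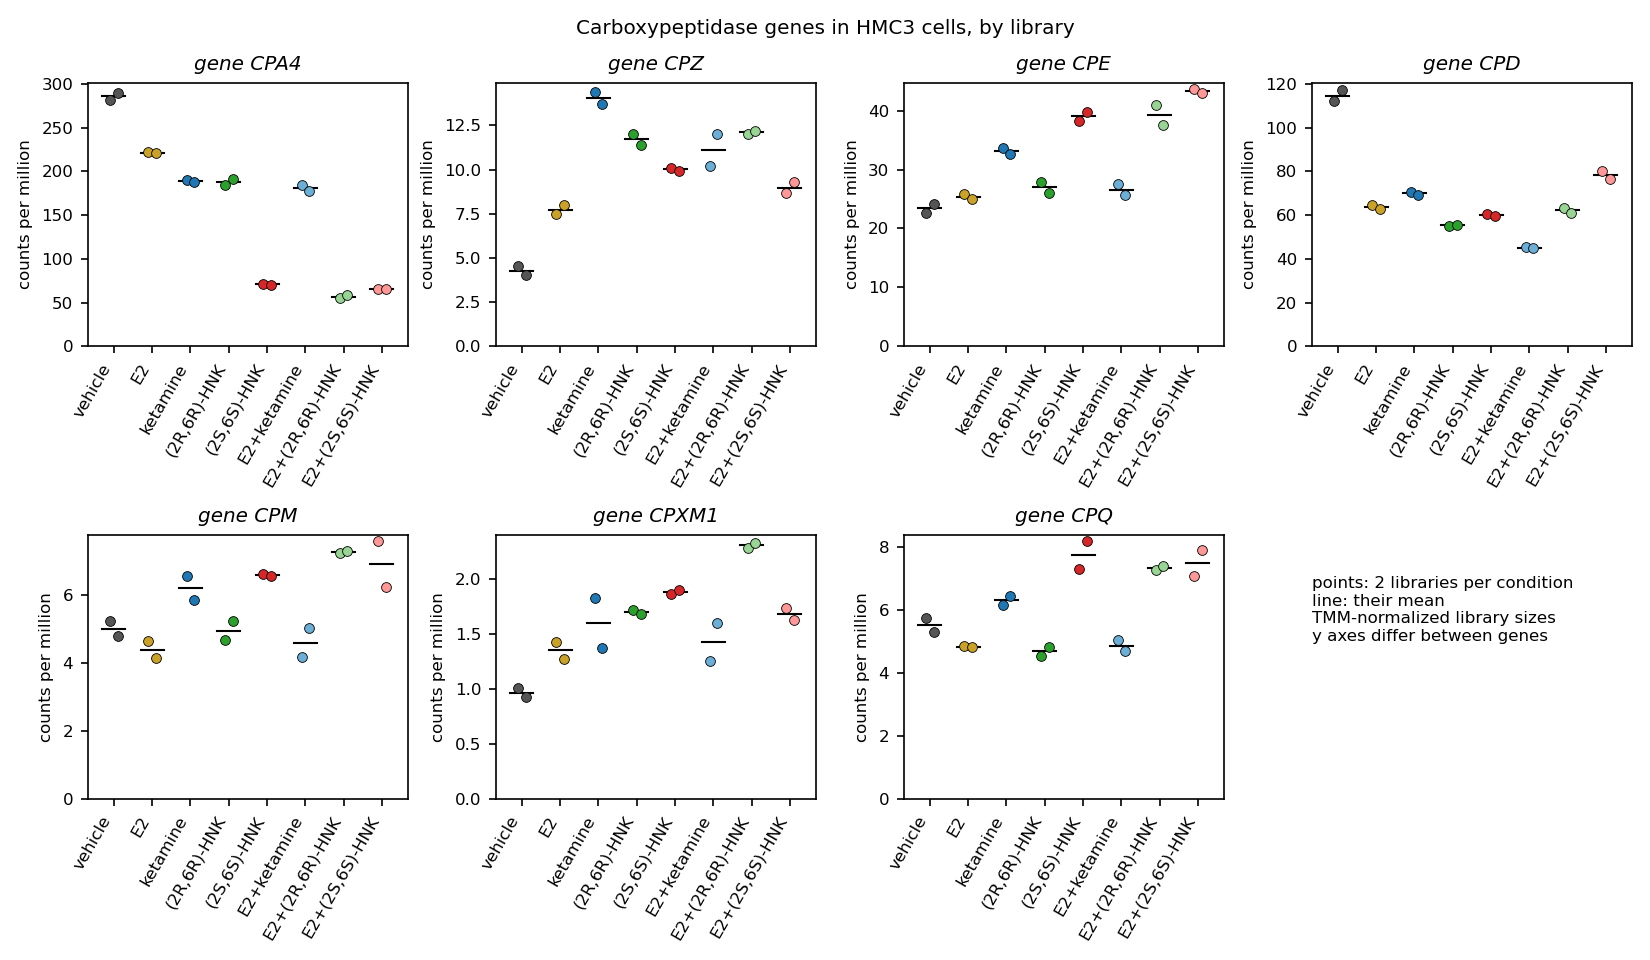
Counts-per-million (y axis, linear, from 0) of the 7 tested carboxypeptidase genes in each condition (x axis), with 1 point per library and a line at the mean of 2. CPA4 sat at 54.9 to 71.4 in (2S,6S)-HNK and in both HNK compounds with E2, and at 178 to 290 elsewhere, and CPE was highest in the same 3 conditions.

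As a description of the differences that chose it, CPA4 was 4.04-fold lower than vehicle in (2S,6S)-HNK, 5.05-fold lower in E2+(2R,6R)-HNK and 4.39-fold lower in E2+(2S,6S)-HNK. These correspond to log2 fold changes of -2.02, -2.34 and -2.13, each with a standard error of 0.032. In E2, ketamine, (2R,6R)-HNK and E2+ketamine the log2 fold changes were -0.37, -0.60, -0.61 and -0.66. The mirror-image compounds were therefore 1.4 (log2) apart without E2, with (2S,6S)-HNK the lower. With E2 the order was the other way and the distance small: E2+(2S,6S)-HNK was 0.20 above E2+(2R,6R)-HNK.

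Only 3 comparisons of CPA4 use no library that chose it. Between (2R,6R)-HNK and ketamine the log2 difference was -0.01, with a 95% interval of -0.07 to 0.04 (adjusted p = 0.73, edgeR quasi-likelihood test). Adding E2 to ketamine gave -0.06 (interval -0.12 to 0.00, adjusted p = 0.0791), which passed the threshold without E2+ketamine replicate 1 at -0.09 (adjusted p = 0.0287) and with upper-quartile normalization at -0.08. E2+ketamine was lower than E2 by 0.29 on the log2 scale (fitted value -0.29 ± 0.03 (SE), adjusted p = 1.37e-11).

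CPE, the carboxypeptidase of prohormone maturation, was high in the conditions in which CPA4 was low. Vehicle libraries had 22.6 and 24.2 counts-per-million, E2 25.8 and 25, (2R,6R)-HNK 27.9 and 26.0, and E2+ketamine 27.5 and 25.7. Ketamine had 33.7 and 32.7, (2S,6S)-HNK 38.3 and 39.8, E2+(2R,6R)-HNK 41.0 and 37.5, and E2+(2S,6S)-HNK 43.7 and 43.0. The lowest library of the last 4 conditions, at 32.7, lay above the highest of the first 4. Against vehicle CPE rose in 6 of 7 treatments in the edgeR test with Benjamini-Hochberg adjustment, by 0.89 in E2+(2S,6S)-HNK (adjusted p = 1.43e-19), 0.75 in E2+(2R,6R)-HNK, 0.74 in (2S,6S)-HNK and 0.50 in ketamine on the log2 scale. The rises of 0.21 in (2R,6R)-HNK and 0.19 in E2+ketamine were smaller. The first missed the threshold without (2R,6R)-HNK replicate 1 at 0.15, and the second without E2+ketamine replicate 1 at 0.13 or vehicle replicate 1 at 0.14. In E2 alone CPE differed by 0.12 (interval 0.00 to 0.23, adjusted p = 0.0734), which passed without vehicle replicate 2 at 0.16. Of the 9 alternatives that kept all replicates it passed in 5, with upper-quartile normalization at 0.18, with DESeq2 at 0.15, with at least 10 counts in every library at 0.12, and at 0.36 with a correction for GC content and exon length, or 0.35 with the replicate block added to it.

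CPM and CPQ followed a similar order at lower levels. CPM, which trims the carboxy-terminal arginine of kinins and other peptides at the cell surface, had 5.23 and 4.78 counts-per-million in vehicle, 4.63 and 4.14 in E2, 4.66 and 5.23 in (2R,6R)-HNK and 4.17 and 5.03 in E2+ketamine. It had 6.56 and 5.84 in ketamine, 6.61 and 6.56 in (2S,6S)-HNK, 7.24 and 7.28 in E2+(2R,6R)-HNK and 7.59 and 6.24 in E2+(2S,6S)-HNK. The libraries of these 4 conditions were all above those of the other 4. CPM rose by 0.54 in E2+(2R,6R)-HNK (adjusted p = 4.34e-05), 0.47 in E2+(2S,6S)-HNK, 0.39 in (2S,6S)-HNK and 0.31 in ketamine (adjusted p = 0.017). The rise in ketamine missed the threshold without ketamine replicate 1 at 0.22 or vehicle replicate 2 at 0.25, and that in E2+(2S,6S)-HNK without its replicate 1 at 0.32 (adjusted p = 0.0545). The other differences of CPM were -0.19 in E2, -0.02 in (2R,6R)-HNK and -0.12 in E2+ketamine, with intervals that included 0.

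CPQ, a secreted peptidase that acts on dipeptides, lies on chromosome 8 from 97657470 to 98161882 on the plus strand (GRCh37). It had 5.75 and 5.32 counts-per-million in vehicle. It had 4.85 and 4.82 in E2, 4.56 and 4.84 in (2R,6R)-HNK and 5.05 and 4.69 in E2+ketamine. The higher values were 6.18 and 6.45 in ketamine, 7.32 and 8.21 in (2S,6S)-HNK, 7.28 and 7.40 in E2+(2R,6R)-HNK and 7.08 and 7.90 in E2+(2S,6S)-HNK. Vehicle lay between both sets without overlap. CPQ rose in 3 treatments, by 0.49 in (2S,6S)-HNK (adjusted p = 5.89e-05), 0.43 in E2+(2S,6S)-HNK and 0.41 in E2+(2R,6R)-HNK. Its differences in ketamine (0.19), E2 (-0.20), E2+ketamine (-0.19) and (2R,6R)-HNK (-0.24, adjusted p = 0.0515) did not pass the test, and upper-quartile normalization brought that in ketamine past it at 0.27 (adjusted p = 0.0216).

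CPD took another course, falling in 7 of 7 treatments. It had 112 and 117 counts-per-million in vehicle, 80 and 76.4 in E2+(2S,6S)-HNK, 70.7 and 69.3 in ketamine and 64.4 and 62.6 in E2. It had 63.4 and 61.1 in E2+(2R,6R)-HNK, 60.5 and 59.5 in (2S,6S)-HNK, 55.1 and 55.5 in (2R,6R)-HNK and 45.4 and 44.9 in E2+ketamine. All treated libraries were below both vehicle libraries, and E2 and E2+(2R,6R)-HNK were the only neighbours in this order whose libraries overlapped. The difference between these neighbours was -0.03 (log2, interval -0.11 to 0.05). Against vehicle the log2 fold changes ran from -0.55 in E2+(2S,6S)-HNK to -1.35 in E2+ketamine (adjusted p = 3.72e-33), and only those in E2+ketamine and (2R,6R)-HNK (-1.05) reached 2-fold.

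CPZ, the matrix carboxypeptidase chosen by its differences in ketamine and (2R,6R)-HNK, was higher than vehicle in every treatment. Vehicle had 4.53 and 4.01 counts-per-million and E2 7.47 and 8, while E2+(2S,6S)-HNK had 8.65 and 9.27. (2S,6S)-HNK had 10.1 and 9.91, E2+ketamine 10.2 and 12, (2R,6R)-HNK 12 and 11.4, E2+(2R,6R)-HNK 12 and 12.2 and ketamine 14.4 and 13.7. The ketamine libraries were above all others and the vehicle libraries below all others. As a description, CPZ was 3.29-fold higher than vehicle in ketamine and 2.75-fold in (2R,6R)-HNK, with log2 fold changes of 1.72 ± 0.094 and 1.46 ± 0.097 (SE). Over the other treatments the log2 fold change ran from 0.86 in E2 to 1.50 in E2+(2R,6R)-HNK.

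CPZ was tested against E2 and, further on, between compounds with E2 and with E2 added to (2S,6S)-HNK, in libraries that did not choose it. CPZ was higher in E2+(2R,6R)-HNK by 0.64 (log2, adjusted p = 1.87e-08) and in E2+ketamine by 0.52 (adjusted p = 2.73e-06). After GC correction these differences were 0.53 and 0.26, the latter with an edgeR adjusted p of 0.0178. In E2+(2S,6S)-HNK the difference from E2 was 0.21 (interval 0.03 to 0.39, adjusted p = 0.0453). This last call was lost without either E2 library (0.16 without replicate 1, 0.26 without replicate 2), without E2+(2S,6S)-HNK replicate 2 at 0.16, without ketamine replicate 1 or 2 at 0.21, and with DESeq2 at 0.20 (adjusted p = 0.0871). It was also lost without the filter on low counts at 0.22, and at 0.21 with halved counts and with only the groups compared in the fit. After GC correction it passed at 0.34 (adjusted p = 0.000926), and it passed in 5 of the 9 alternatives that kept all replicates. Of genes tested, 55.1% passed for E2+(2S,6S)-HNK against E2, 50.3% for E2+ketamine and 50.5% for E2+(2R,6R)-HNK.

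CPXM1, the secreted protein without known peptidase activity, was the least abundant gene tested, with 55 to 170 counts per library. It had 1.01 and 0.923 counts-per-million in vehicle, 1.43 and 1.27 in E2, 1.25 and 1.60 in E2+ketamine and 1.83 and 1.37 in ketamine. It had 1.72 and 1.68 in (2R,6R)-HNK, 1.74 and 1.63 in E2+(2S,6S)-HNK, 1.86 and 1.90 in (2S,6S)-HNK and 2.28 and 2.33 in E2+(2R,6R)-HNK. Both vehicle libraries were below every treated library. CPXM1 rose in 6 of 7 treatments, by 1.25 in E2+(2R,6R)-HNK (adjusted p = 9.31e-07) and by 0.56 to 0.96 in the other 5, and in E2 it differed by 0.48 (adjusted p = 0.0668), which upper-quartile normalization brought past the threshold at 0.54. The rise of 0.73 in ketamine missed the threshold without ketamine replicate 1 at 0.50. That of 0.56 in E2+ketamine missed it without E2+ketamine replicate 2 at 0.37 or vehicle replicate 2 at 0.49. With the correction for GC content and exon length, CPXM1 missed the threshold in ketamine at 0.41, (2R,6R)-HNK at 0.33 and E2+ketamine at -0.08.

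**Figure D2:**
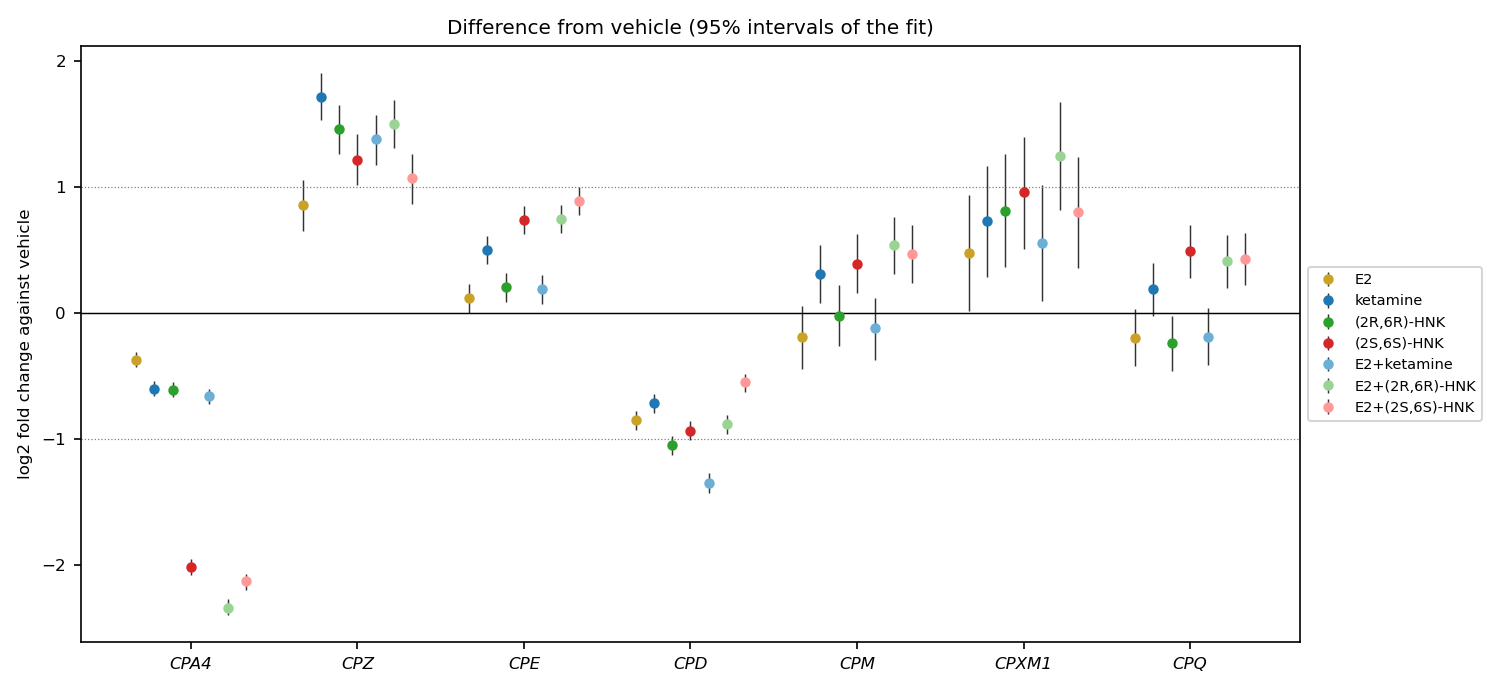
Fitted log2 fold change against vehicle (y axis) of each tested gene (x axis) in the 7 treatments (colours), with 95% intervals of the fit and dotted lines at 2-fold. CPD lay below 0 in every treatment, and CPE, CPM and CPQ were highest in (2S,6S)-HNK and in both HNK compounds with E2, where CPA4 was lowest. CPA4 and CPZ were chosen by such differences and carry no test.

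The 5 genes CPE, CPD, CPM, CPXM1 and CPQ were tested against vehicle in all 7 treatments, which gave 26 calls in 35 tests. The libraries differed from vehicle at most genes, and the calls are read against that background. E2 changed 1 of the 5 genes where 62.5% of all genes tested passed, ketamine 4 where 59.3% passed, and (2R,6R)-HNK 3 where 66.6% passed. (2S,6S)-HNK changed 5 of 5 where 67.9% passed, E2+(2R,6R)-HNK 5 where 69.7% passed and E2+(2S,6S)-HNK 5 where 59.7% passed, whereas E2+ketamine changed 3 where 71.7% passed. With the added limit of 2-fold there were 3 calls: CPD in (2R,6R)-HNK and E2+ketamine and CPXM1 in E2+(2R,6R)-HNK. After correction for GC content, none of these 3 reached 2-fold (log2 values of -0.51, -0.69 and 0.78), whereas CPE did in both HNK compounds with E2, at 1.01 and 1.03, and was at 1.0 in (2S,6S)-HNK. The share of all genes past that limit was 1.81% in E2, 3.56% in ketamine, 3.75% in (2R,6R)-HNK, 9.08% in (2S,6S)-HNK, 11% in E2+ketamine, 11.5% in E2+(2R,6R)-HNK and 5.85% in E2+(2S,6S)-HNK. These counts alone do not set the 5 genes apart from the others.

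The fold changes of all genes moved with the GC content of their exons. Over 15335 genes, the rank correlation of the log2 fold change against vehicle with GC content was 0.444 in E2+(2S,6S)-HNK and 0.643 to 0.771 in the other treatments, as a description across genes of shared libraries. CPZ and CPXM1 have GC-rich exons (61.9% and 60.5%), CPA4 lies at 49.8%, and CPQ, CPE, CPM and CPD lie at 46.1%, 44.7%, 42.4% and 40.3%. When every library was corrected for GC content and exon length, CPA4 was at -2.08 in (2S,6S)-HNK, -2.16 in E2+(2S,6S)-HNK and -2.42 in E2+(2R,6R)-HNK. The part of GC content in the results was not tested.

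**Figure D3:**
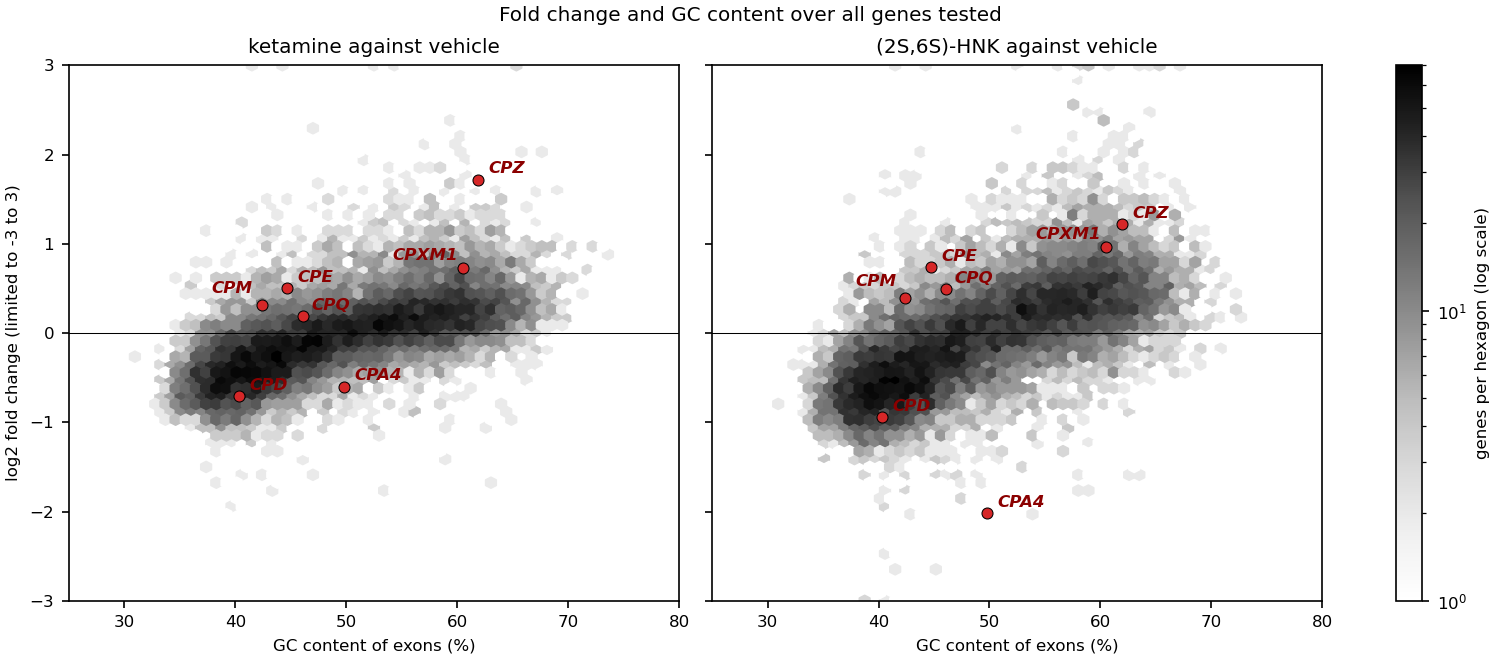
Log2 fold change against vehicle (y axis, limited to -3 to 3) and GC content of exons in percent (x axis) for all genes tested with an annotation, in ketamine (left) and (2S,6S)-HNK (right). Grey hexagons give the number of genes on a log scale and red points the 7 carboxypeptidase genes. CPD lay within the bulk of genes of its GC content, and CPA4 lay below it, at -0.60 in ketamine and -2.02 in (2S,6S)-HNK.

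The correction acted on the members in opposite ways. The falls of CPD became smaller, from -0.29 in E2+(2S,6S)-HNK to -0.69 in E2+ketamine, and all 7 still passed the test. The rises of CPE became larger, at 1.0 in (2S,6S)-HNK, 1.01 in E2+(2R,6R)-HNK and 1.03 in E2+(2S,6S)-HNK, and the difference in E2 passed at 0.36 (adjusted p = 2.08e-07). CPM rose to 0.91 in E2+(2R,6R)-HNK and turned to rises of 0.40 in (2R,6R)-HNK (adjusted p = 0.00407) and 0.41 in E2+ketamine. CPXM1 missed the threshold in ketamine (0.41), (2R,6R)-HNK (0.33) and E2+ketamine (-0.08) and kept it in (2S,6S)-HNK (0.52), E2+(2R,6R)-HNK (0.78) and E2+(2S,6S)-HNK (0.56). CPQ passed in ketamine as well, at 0.29 (adjusted p = 0.0163). CPZ lay at 1.36 in ketamine, 0.95 in (2R,6R)-HNK and 0.43 in E2. Genes of like GC content to CPZ had median log2 fold changes of 0.31, 0.50 and 0.41 in these treatments. For genes of like GC content to CPD, the medians before the correction ran from -0.31 in E2+(2S,6S)-HNK to -0.73 in E2+ketamine.

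The 3 drugs were compared with each other at the same dose and time, without and with E2, in 34 tests of the 7 genes with p-values adjusted over all genes within each pair, and 25 passed. Between (2R,6R)-HNK and ketamine, which differ in the ring hydroxyl and the N-methyl group, 4 of 6 genes passed, all lower in (2R,6R)-HNK, where 45.4% of all genes passed. The differences were -0.43 for CPQ (adjusted p = 0.000599), -0.34 for CPD, -0.33 for CPM and -0.30 for CPE. That of CPM was lost without (2R,6R)-HNK replicate 1 or ketamine replicate 1 (both -0.25) and after GC correction (-0.16). CPXM1 differed by 0.09 (interval -0.32 to 0.49).

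Between (2S,6S)-HNK and ketamine, 3 of 5 genes passed where 46.1% of all genes did. CPQ was higher in (2S,6S)-HNK by 0.30 (adjusted p = 0.0118) and CPE by 0.24 (adjusted p = 0.000199), and CPD was lower by 0.22, a fitted log2 value of -0.22. The difference of CPQ was lost without (2S,6S)-HNK replicate 2 at 0.21 or ketamine replicate 1 at 0.27, and that of CPD after GC correction at -0.08. CPM (0.09, interval -0.14 to 0.31) and CPXM1 (0.23, interval -0.17 to 0.63) did not pass.

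The mirror-image pair differed in 4 of 5 genes, all higher in (2S,6S)-HNK than in (2R,6R)-HNK, where 43.5% of all genes passed. CPQ was 0.73 higher (interval 0.51 to 0.94, adjusted p = 1.35e-07), CPE 0.53 higher (interval 0.42 to 0.64, adjusted p = 1.46e-11), CPM 0.42 higher and CPD 0.12 higher. The difference of CPM was lost without (2R,6R)-HNK replicate 1 at 0.33. That of CPD was lost without (2R,6R)-HNK replicate 1 at 0.11, without (2S,6S)-HNK replicate 1 at 0.10, and after GC correction at 0.04. CPXM1 differed by 0.14 (interval -0.27 to 0.55).

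**Figure D4:**
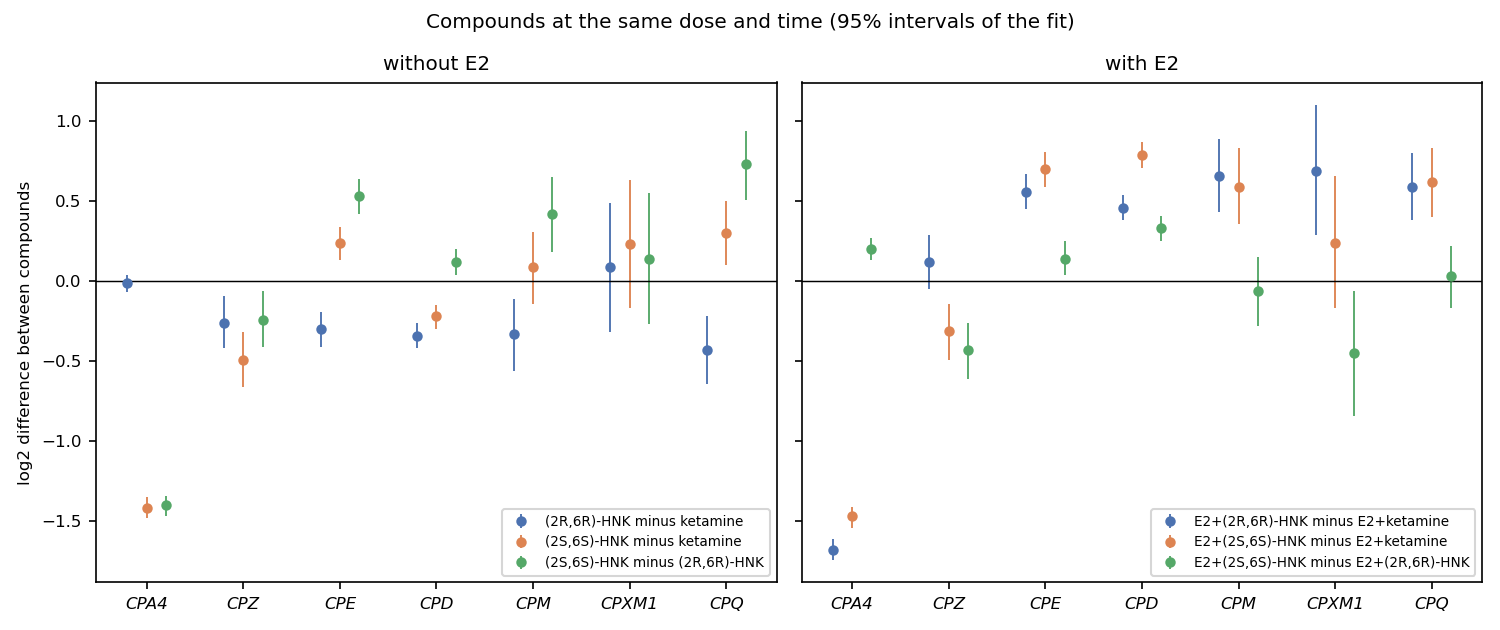
Log2 difference between compounds at the same dose and time (y axis) for each tested gene (x axis), without E2 (left) and with E2 (right), with 95% intervals of the fit. Without E2, (2S,6S)-HNK lay above (2R,6R)-HNK for CPE, CPM and CPQ (green), and with E2 the same pair differed by -0.06 for CPM and 0.03 for CPQ. CPA4 and CPZ were chosen by differences in some of these libraries.

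With E2 present, the mirror-image compounds differed by less than without it for CPE, CPM and CPQ and by more for CPD and CPXM1, a change that was not tested as such. Between E2+(2S,6S)-HNK and E2+(2R,6R)-HNK, 4 of 6 genes passed where 54% of all genes did. CPD was higher by 0.33 (adjusted p = 1.69e-10) and CPE by 0.14 (adjusted p = 0.0157), whereas CPZ and CPXM1 were lower, at -0.43 (adjusted p = 1.79e-05) and -0.45 (adjusted p = 0.0464). The call of CPE was lost without E2+(2R,6R)-HNK replicate 2 at 0.08, without E2+(2S,6S)-HNK replicate 1 at 0.13 and after GC correction at 0.02. The call of CPXM1 was lost without any one of the 4 libraries compared, at -0.50 to -0.40, with DESeq2 at -0.46, with upper-quartile normalization at -0.42, and after GC correction at -0.22. CPZ was at -0.19 after GC correction (adjusted p = 0.0881). CPM differed by -0.06 (interval -0.28 to 0.15) and CPQ by 0.03 (interval -0.17 to 0.22).

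CPE, CPD, CPM and CPQ were higher in both HNK compounds with E2 than in E2+ketamine, whereas CPA4, given as description, was at -1.68 in E2+(2R,6R)-HNK and at -1.47 in E2+(2S,6S)-HNK against E2+ketamine. E2+(2R,6R)-HNK was higher for 5 of 6 genes where 52% of all genes passed: CPXM1 by 0.69 (adjusted p = 0.00332), CPM by 0.66, CPQ by 0.59, CPE by 0.56 (adjusted p = 1.34e-12) and CPD by 0.46. Without E2+ketamine replicate 1, CPXM1 missed the threshold at 0.52. CPZ differed by 0.12 (interval -0.05 to 0.29), and passed without E2+ketamine replicate 2 at 0.25 and after GC correction at 0.27. E2+(2S,6S)-HNK differed from E2+ketamine in 5 of 6 genes where 66.8% of all genes passed. CPD was higher by 0.79 (adjusted p = 1.55e-23), CPE by 0.70, CPQ by 0.62 and CPM by 0.59, and CPZ was lower at -0.31 (adjusted p = 0.00156). CPZ missed the threshold without E2+ketamine replicate 2 at -0.19 and turned to 0.08 after GC correction, where CPM missed it at 0.26. CPXM1 differed by 0.24 (interval -0.17 to 0.66), and passed after GC correction at 0.64.

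Adding E2 to a drug was tested next, with 10 calls in 17 tests. E2 added to ketamine lowered 4 of 6 genes where 57.5% of all genes passed. The log2 differences were -0.63 for CPD (adjusted p = 2.08e-19), -0.43 for CPM, -0.37 for CPQ and -0.32 for CPE. CPM missed the threshold without E2+ketamine replicate 1 at -0.30, and after GC correction CPM (-0.14) and CPQ (-0.23) missed it. CPXM1 differed by -0.17 (interval -0.59 to 0.25), and passed after GC correction at -0.49 (adjusted p = 0.0492). This was the only pass in 9 alternatives that kept all replicates, and it was lost with the replicate block added to the correction. Without ketamine replicate 1 the difference of CPXM1 was 0.05.

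E2 added to (2R,6R)-HNK raised 4 of 5 genes where 47.9% of all genes passed. CPQ rose by 0.65 (adjusted p = 8.8e-07), CPM by 0.56 (adjusted p = 4.14e-05), CPE by 0.54 (adjusted p = 4.12e-12) and CPD by 0.17 (adjusted p = 0.000239), and CPXM1 differed by 0.44 (interval 0.05 to 0.83, adjusted p = 0.0602). CPXM1 passed without E2+ketamine replicate 1 at 0.44 (adjusted p = 0.0498), with halved counts at 0.45 and with the 2 groups alone at 0.43. CPA4, as a description, was 3.3-fold lower in E2+(2R,6R)-HNK than in (2R,6R)-HNK, a log2 difference of -1.72.

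E2 added to (2S,6S)-HNK changed 2 of 6 genes where 51.3% of all genes passed. CPD rose by 0.38 (adjusted p = 5.5e-12) and CPE by 0.15 (adjusted p = 0.0138), which was lost without (2S,6S)-HNK replicate 1 at 0.13, without E2+(2S,6S)-HNK replicate 1 at 0.14 and after GC correction at 0.02. CPM (0.08, interval -0.15 to 0.30), CPQ (-0.06, interval -0.26 to 0.15), CPXM1 (-0.15, interval -0.56 to 0.25) and CPZ (-0.16, interval -0.34 to 0.02) did not pass. CPA4, as a description, differed by -0.12.

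Whether a drug acted differently in the presence of E2 was tested with the interaction, the effect of a drug with E2 minus its effect without E2, and 7 of 15 tests passed. For (2R,6R)-HNK, 4 of 5 genes passed where 56.6% of all genes did: CPD at 1.03 (adjusted p = 7.5e-22), CPQ at 0.84 (adjusted p = 4.63e-06), CPM at 0.75 (adjusted p = 0.000118) and CPE at 0.42 (adjusted p = 8.33e-06). For CPE, CPM and CPQ, (2R,6R)-HNK lay within 0.24 of vehicle without E2, whereas with E2 it stood 0.63, 0.73 and 0.60 above E2. CPM missed the threshold after GC correction at 0.36 and CPE was at 0.19 (adjusted p = 0.0309).

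For ketamine, 2 of 5 interactions passed where 37.5% of all genes did: CPE at -0.44 (adjusted p = 1.33e-05) and CPD at 0.22 (adjusted p = 0.000851). Ketamine raised CPE by 0.50 against vehicle, and E2+ketamine differed from E2 by 0.07 (interval -0.05 to 0.18). For (2S,6S)-HNK, CPD alone passed, at 1.24 (adjusted p = 2.2e-25), where 65.1% of all genes did. Its 2 parts had opposite signs: (2S,6S)-HNK lowered CPD by 0.94 against vehicle (fitted value -0.94), and E2+(2S,6S)-HNK was 0.30 above E2 (adjusted p = 2.19e-09). After GC correction the CPD interactions were 0.61 for (2S,6S)-HNK, 0.54 for (2R,6R)-HNK and 0.13 for ketamine, and that of CPE with (2S,6S)-HNK passed at -0.33 (adjusted p = 0.000159), against 0.03 without the correction. CPXM1 with ketamine was at -0.65 (adjusted p = 0.0966) and passed at -0.84 without E2+ketamine replicate 2 or ketamine replicate 2. CPM with (2S,6S)-HNK was at 0.27 and passed at 0.40 without E2+(2S,6S)-HNK replicate 2.

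The opposite courses of CPA4 and CPE are also seen across the 16 libraries, which share 8 conditions. The Pearson correlation of their log2 counts-per-million was -0.927. CPA4 correlated with CPQ at -0.829 and with CPM at -0.812, CPE with CPQ at 0.883 and with CPM at 0.862, and CPA4 with CPZ at -0.396 and with CPD at 0.194. Among 10373 genes with at least 5 counts-per-million, those most like CPA4 were FAHD1 (0.98), SH2D4A (0.976) and DERL2 (0.975). The most opposed were LMOD1, an actin-binding protein of smooth muscle (-0.987), TRAPPC6A (-0.985) and COL4A6, a basement membrane collagen (-0.984). For CPZ the most alike were FADS1, a fatty acid desaturase (0.958), ARHGEF16 (0.941) and HS6ST1, a heparan sulfate sulfotransferase (0.934), and the most opposed BZW2 (-0.963), the matrix protease ADAMTS5 (-0.954) and BDP1 (-0.951). After GC correction FADS1 with CPZ was at 0.655 and DERL2 with CPA4 at 0.729. These values describe libraries that share conditions and are not independent of the differences that chose CPA4 and CPZ.

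Neighbours of CPA4 on chromosome 7 include MEST, an imprinted gene, and the carboxypeptidase gene CPA5. Of 7 such genes, 5 were tested, none rose in any treatment, and 3 or 4 fell in each, where 59.3% to 71.7% of all genes passed in either direction. MEST had 321 and 324 counts-per-million in vehicle, 291 and 293 in E2, 264 and 261 in ketamine, 291 and 278 in (2R,6R)-HNK and 220 and 211 in E2+ketamine. It had 164 and 165 in (2S,6S)-HNK, 150 and 146 in E2+(2R,6R)-HNK and 158 and 161 in E2+(2S,6S)-HNK. Its lowest 3 conditions were those of CPA4, with log2 fold changes of -0.97, -1.13 (adjusted p = 5.38e-36) and -1.02, against -0.58 to -0.14 in the other 4. After GC correction MEST was at -0.95, -1.12 and -1.0 in these 3. CEP41 and COPG2 changed sign with that correction in some treatments. CEP41, with calls of -0.45 to -0.22 in E2, (2R,6R)-HNK and E2+ketamine, was then at 0.07, 0.17 and 0.04, and COPG2, with calls of -0.18 in ketamine, -0.21 in (2S,6S)-HNK and -0.26 in E2+(2R,6R)-HNK, was at 0.04, 0.14 and 0.09. Both were named after their values were seen. CPA5, at 9 to 57 counts per library and named after its values were seen, fell by 1.43, 1.45 and 1.73 in the same 3 treatments, fitted values of -1.43, -1.45 and -1.73 (adjusted p = 0.00215, 0.00124 and 0.000294). In the other 4 treatments CPA5 ran from -0.55 to 0.07 and did not pass.

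Of 16 other M14 genes, 7 were tested, and in each treatment 2 rose and 1 to 3 fell, where 59.3% to 71.7% of all genes passed in either direction, with medians of -0.22 to 0.06 where the medians of all genes were -0.06 to 0.00. AEBP1, a matrix protein of the same family as CPXM1, rose in 7 of 7 treatments by 0.37 to 0.79, and after GC correction its values were -0.09 to 0.21. AGBL5, a tubulin deglutamylase, also rose in 7 of 7, by 0.29 to 0.56, and was at 0.04 to 0.22 after GC correction. AGTPBP1, another tubulin deglutamylase, fell in 7 of 7, from -0.47 in E2+(2S,6S)-HNK to -1.16 in E2+ketamine (adjusted p = 5.14e-17), and like CPD it was lowest in E2+ketamine. After GC correction AGTPBP1 was at -0.54 in E2+ketamine. Before the correction, genes of like GC content to CPD also had their lowest median in E2+ketamine, at -0.73. CPA1, CPA6, CPB1, CPB2, CPN1, CPO, AGBL1 and AGBL4 had at most 15 counts in any library.

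Of 14 carboxypeptidases of other families, 10 were tested, and 2 to 4 rose and 1 to 3 fell in each treatment, against the same background of 59.3% to 71.7%, with medians of -0.01 to 0.12. VASH1, a tubulin carboxypeptidase, rose in 7 of 7 treatments, by 0.46 in E2 to 1.03 in E2+(2R,6R)-HNK (adjusted p = 6.68e-17), and was at 0.08 in E2 to 0.52 in E2+(2R,6R)-HNK after GC correction. The lysosomal carboxypeptidases CTSZ and SCPEP1 lay between 81.4 and 99.7 and between 25.9 and 30.7 counts-per-million over all libraries. CTSZ passed the test at 0.1 in E2 and in ketamine, and at -0.11 in (2S,6S)-HNK and in E2+(2R,6R)-HNK. After GC correction these values were -0.07, -0.08, -0.33 and -0.37. SCPEP1 passed in ketamine at 0.12, and was at 0.26 there after GC correction. CTSA, another lysosomal carboxypeptidase, had 216 to 305 counts-per-million and rose in 7 of 7 treatments by 0.12 to 0.47, and was at -0.06 to 0.09 after GC correction. CTSA was also named after its values were seen.

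Of 15 prohormone processing genes, the pathway in which CPE acts, 11 were tested. Rises numbered 2 to 5 and falls 0 or 1 in each treatment, again where 59.3% to 71.7% of all genes passed, with medians of -0.02 to 0.54. PCSK4, a proprotein convertase, rose in 7 of 7 treatments, by 0.75 in E2 to 1.46 in E2+(2R,6R)-HNK (adjusted p = 2.99e-15). After GC correction PCSK4 was at 0.08 in E2+ketamine to 0.81 in E2+(2S,6S)-HNK. PAM, the enzyme that amidates peptides after CPE has acted, fell in E2 (-0.52), (2R,6R)-HNK (-0.62) and E2+ketamine (-0.52, adjusted p = 1.16e-21), and rose in E2+(2S,6S)-HNK by 0.19 and in E2+(2R,6R)-HNK by 0.06. After GC correction PAM was at -0.35, -0.40 and -0.21 in the first 3 of these and at 0.29 and 0.23 in the last 2. PAM was named after its values were seen. The granule genes PCSK1, PCSK2, CHGA and SCG3 did not pass the filter on low counts and had at most 14 counts in any library. Other granule genes of the list passed it at low levels, with 52 to 117 counts for VGF, 21 to 61 for SCG2, 0 to 20 for SCG5 and 0 to 14 for CHGB.

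LXN, which encodes latexin, an inhibitor of the A/B carboxypeptidases, had a vehicle mean of 1.81 counts-per-million and fell in (2S,6S)-HNK at -1.04 (adjusted p = 7.45e-05), E2+ketamine at -0.75 and E2+(2R,6R)-HNK at -0.72. After GC correction these values were -0.54, -0.16 and -0.19. Of the kinin genes, whose peptides CPM trims, only the receptor gene BDKRB2 was tested, and it was named after its values were seen. BDKRB2 had 9 and 8 counts in vehicle, 10 and 13 in E2, 7 and 16 in (2R,6R)-HNK and 6 and 13 in E2+ketamine. It had 69 and 50 counts in ketamine, 38 and 58 in (2S,6S)-HNK, 74 and 42 in E2+(2R,6R)-HNK and 72 and 45 in E2+(2S,6S)-HNK, with no overlap between these 4 conditions and the other 4. Its log2 fold changes in these 4 treatments were 2.31, 2.56, 2.47 and 2.48 (adjusted p = 4.1e-05, 6.6e-06, 9.35e-06 and 1.25e-05), and they were the 4 conditions in which CPM was higher. The share of all genes with the same split of conditions was not computed. BDKRB1 and KNG1 had at most 6 and 2 counts.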

How the data were processed

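The authors made amplified cDNA libraries (Ovation RNA-Seq System V2), sequenced paired reads, aligned them to hg19 and counted them per gene; the submitters' processing notes name TopHat2 2.0.14, Bowtie2 2.2.6 and featureCounts 1.4.6. The deposited values are raw counts for each of 16 libraries, without normalization. Of counts from 1 to 9, 65.8% were even, against 49.9% of counts of 500 or more, so halved counts were tried.

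Analyses used R 4.3.3. Genes were filtered with filterByExpr (16004 of 25370 kept) and normalized by TMM, and edgeR 4.0.16 gave all comparisons from 1 quasi-likelihood fit with 8 condition means and 8 residual degrees of freedom. P-values were adjusted by Benjamini-Hochberg over all genes within each comparison, with a threshold of 0.05. Standard errors and 95% intervals come from the fit. Levels in counts-per-million use TMM library sizes. A prior count of 2 was used for log2 counts-per-million in the correlations and the GC fit. Fold changes used the default prior count of edgeR.

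GENCODE models on GRCh37 gave positions, exon length and GC content (21539 genes matched by symbol, 1450 by an older symbol, 95.8% of tested genes covered). To correct for GC content and length, a loess fit (span 0.5) per library served as an offset, and a change in the cells themselves that tracked GC content would be removed with it. Alternatives were DESeq2 1.42.0, the compared groups alone, other filters, upper-quartile normalization, a replicate block, halved counts, and each library left out, which leaves 1 library in a condition, assumed to vary like the others. Scripts were tested on simulated data.

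The members and lists were chosen with earlier results of these data known. Genes named from lists had a mean of at least 1 count-per-million and a change of at least 1 (log2) past the threshold, except cell type markers, those said to be named after their values were seen and those named for being low, near absent or alike in level or direction in every treatment. A few genes of the lists are not reported here.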

Additional observations from a re-analysis of the deposited data

Results flagged for a closer look

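The interaction tests marked 7 of 15 gene and drug pairs in which the effect of a drug with E2 differed from its effect without E2 (edgeR quasi-likelihood test, Benjamini-Hochberg adjustment over all genes). Of all genes, 65.1% passed for (2S,6S)-HNK, 56.6% for (2R,6R)-HNK and 37.5% for ketamine, so the count does not set these genes apart. CPE had an interaction of -0.44 with ketamine and 0.42 with (2R,6R)-HNK. CPD had interactions of 1.24 with (2S,6S)-HNK, 1.03 with (2R,6R)-HNK and 0.22 with ketamine. CPM and CPQ had interactions of 0.75 and 0.84 with (2R,6R)-HNK. All 7 kept their direction and their call when any 1 library was left out, and after GC correction CPM with (2R,6R)-HNK missed the threshold at 0.36. The correction also moved CPD to 0.61 with (2S,6S)-HNK, 0.54 with (2R,6R)-HNK and 0.13 with ketamine, and CPE to 0.19 with (2R,6R)-HNK and -0.49 with ketamine. CPQ with (2R,6R)-HNK was then at 0.68. CPE with (2S,6S)-HNK, at 0.03 without the correction, passed at -0.33 with it.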

How the results depend on the processing

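The 2 libraries per condition and counts of 55 to 170 per library for CPXM1 limit what can be resolved. The total counts of calls against vehicle, between compounds, with E2 added and of interactions moved by less than 1.5 times under every alternative run, but single comparisons moved by more. With the GC and length correction, calls between E2+(2S,6S)-HNK and E2+(2R,6R)-HNK went from 4 to 1, those with E2 added to (2S,6S)-HNK from 2 to 1, those of E2 against vehicle and of the (2S,6S)-HNK interaction from 1 to 2, and the rises of CPXM1 from 6 to 3. E2 against vehicle also had 3 calls with upper-quartile normalization and 2 with DESeq2 or with at least 10 counts in every library, and E2 added to ketamine 2 in place of 4 with the correction and the block together. Leaving out 1 library also ended calls in (2S,6S)-HNK against (2R,6R)-HNK, without (2R,6R)-HNK replicate 1, and in ketamine against vehicle, without ketamine replicate 1. Between E2+(2S,6S)-HNK and E2+(2R,6R)-HNK, CPE and CPXM1 were at 0.08 and -0.43 without E2+(2R,6R)-HNK replicate 2. Without E2+(2S,6S)-HNK replicate 1 they were at 0.13 and -0.5, and both calls were lost each time. Leaving out each library gave 24 to 26 calls against vehicle, 22 to 25 between compounds, 9 to 11 with E2 added and 7 to 8 interactions, and log2 fold changes of CPA4 in E2+(2R,6R)-HNK of -2.38 to -2.29.

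The replicate numbers do not pair the libraries: deviations of same-numbered libraries correlated at -0.0258 to 0.0451 over 28 pairs of conditions. The fit with the replicate block gave 26 calls against vehicle, 25 between compounds, 10 with E2 added and 7 interactions, as without it, and changed none of 110 single results.

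With all libraries kept, the differences from vehicle that chose CPA4 and CPZ moved by more than their standard error as follows. Where no construction shows it, the cause was not tested. Other members were not part of this check, and some moved further, such as CPD in E2+ketamine from -1.35 to -0.69 with the GC and length correction. CPA4 was at -2.08 in (2S,6S)-HNK and -2.42 in E2+(2R,6R)-HNK with the GC and length correction, with and without the block. With upper-quartile normalization it was at -1.94 in (2S,6S)-HNK, -2.25 in E2+(2R,6R)-HNK and -2.03 in E2+(2S,6S)-HNK, and at -2.06 in the last with the compared groups alone. CPZ was at 1.36 in ketamine and 0.95 in (2R,6R)-HNK with the correction, with and without the block.

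The following changed sign with the GC and length correction, with the same values under the block. Against vehicle these were CPM at 0.15 in E2, 0.40 in (2R,6R)-HNK and 0.41 in E2+ketamine, CPXM1 at -0.08 and CPQ at 0.06 in E2+ketamine. Between compounds they were CPXM1 at -0.08 in (2R,6R)-HNK against ketamine, CPQ at -0.05 in E2+(2S,6S)-HNK against E2+(2R,6R)-HNK and CPZ at 0.08 in E2+(2S,6S)-HNK against E2+ketamine. With E2 added to (2S,6S)-HNK, CPM was at -0.10, CPXM1 at 0.04 and CPZ at 0.05. In interactions, CPXM1 was at 0.34 for (2R,6R)-HNK, and CPE, CPM and CPQ were at -0.33, -0.25 and -0.10 for (2S,6S)-HNK. CPM in (2R,6R)-HNK was also at 0.05 with upper-quartile normalization and 0.02 with DESeq2, and the CPE interaction with (2S,6S)-HNK at 0.00 and -0.01.

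Over the fits that left out 1 library, values that changed sign were all of differences that did not pass the test. CPM ran from -0.10 to 0.06 in (2R,6R)-HNK and -0.27 to 0.01 in E2+ketamine against vehicle. Between compounds, CPXM1 ran from -0.11 to 0.31 and CPA4 from -0.04 to 0.01 in (2R,6R)-HNK against ketamine, and CPM from -0.22 to 0.07 and CPQ from -0.05 to 0.11 in E2+(2S,6S)-HNK against E2+(2R,6R)-HNK. With E2 added, CPXM1 ran from -0.36 to 0.05 for ketamine, and CPM from -0.08 to 0.21 and CPQ from -0.13 to 0.03 for (2S,6S)-HNK. The interactions of CPXM1 with (2R,6R)-HNK and CPE with (2S,6S)-HNK ran from -0.12 to 0.05 and -0.01 to 0.08.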
